A study of Homo sapiens with 12 samples.

Results

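U937 cells that carried an EVI1 expression vector and received all-trans retinoic acid (ATRA) were compared with U937 cells that carried the empty vector and received only the solvent, DMSO. U937 is an established human line of immature monocytic leukaemia cells. The 2 groups hold 6 of the 12 Affymetrix 3′ expression arrays of the series, 3 in each group, chosen by their group labels and paired by the replicate number in the titles. Cells of both groups were transduced, grown in the same medium and exposed for 24 h, the EVI1 ATRA cells to 1 µM ATRA and the vector DMSO cells to a matching volume of DMSO. The other 6 arrays carry 1 of the 2 changes each, as 3 arrays of vector cells with ATRA and 3 of EVI1 cells with DMSO. The design text calls the 3 replicates biological, without saying how the cultures were separated. The question is which genes end away from the starting level because EVI1 and ATRA move them the same way, and which end at the starting level because the 2 move them in opposite ways.

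The sources used here do not give the promoter of the vector or say whether the transduced lines were pools or clones. An effect of EVI1 and any other difference between the 2 transduced lines therefore cannot be told apart. The arrays read bulk cultures, so a change in every cell and a change in the share of cells that express a gene cannot be told apart either.

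EVI1, a product of the MECOM locus, is a zinc finger transcription factor of blood stem cells that is overexpressed in a group of aggressive myeloid leukaemias. ATRA binds the retinoic acid receptors, which sit on DNA as partners of the retinoid X receptors and change from repressors to activators when the ligand binds. In immature myeloid cells ATRA slows division and drives maturation, and it is used to treat acute promyelocytic leukaemia.

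Expression values are log2 signals, so a difference of 1 is a 2-fold change. Each gene was read by its brightest probe set, and 14080 genes that reached a log2 signal of 5 on at least 3 arrays were tested. Because every group has 3 arrays, the difference between EVI1 ATRA and vector DMSO is exactly the sum of 2 terms. The ATRA term is the ATRA minus DMSO difference averaged over vector and EVI1 cells. The EVI1 term is the EVI1 minus vector difference averaged over DMSO and ATRA. All differences were tested in 1 limma fit over the 12 arrays with the replicate number as a block, and calls were made at an adjusted p (Benjamini-Hochberg over all genes tested) below 0.05. The term "added" is used for genes called in both terms with 1 sign and in the combined difference, and "opposed" for genes called in both terms with opposite signs. An opposed gene is "returned" where the 90% confidence interval of its combined difference lies within a 1.5-fold change in either direction.

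The 3′ to 5′ signal gap of the control transcripts was similar on the 12 arrays, at 0.15 to 0.32 for GAPDH and 0.34 to 0.70 for ACTB. The 5 probe sets for MECOM read 2.61 to 3.6 on every array, below the lower quartile of each array (3.83 to 3.91), and 0 of the 5 were called, so the EVI1 label was not checked by the arrays. The summed linear signal of markers of U937 and monocytic lines was 19034 to 20947 in vector DMSO and 19507 to 23004 in EVI1 ATRA. In both DMSO groups array 3 lay closest to EVI1 ATRA. Over the genes called in the combined difference, array 3 of vector DMSO was shifted toward EVI1 ATRA by a mean of 0.08, against -0.06 and -0.02 for the other arrays of its group, and array 3 of EVI1 DMSO by 0.29, against 0.06 and 0.16. The 3 vector ATRA arrays were shifted by 0.23, 0.32 and 0.33, and the 3 EVI1 ATRA arrays by 0.47, 0.64 and 0.78. Counts without replicate 3 or without array 3 of a DMSO group are given beside the results they touch. The part of these arrays in the results was not tested.

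The combined state differed from untreated vector cells in a large share of the transcriptome. Of the genes tested, 3081 (21.9%) were higher and 3175 (22.5%) were lower in EVI1 ATRA, 44.4% in either direction. At least a 2-fold change was seen for 564 of the higher and 237 of the lower genes. The 3 EVI1 ATRA arrays lay above all 3 vector DMSO arrays for 2407 of the higher genes and below all 3 for 2246 of the lower genes. These counts were taken among genes already called in the same comparison and not over all genes. They therefore give no separate support to the calls. Without the replicate block, 1959 genes were higher and 1672 lower (25.8% in all), each of them also called with the block. The counts fell with each replicate left out, where fewer arrays remain. Without replicates 1, 2 and 3, 2797, 1971 and 2517 genes were higher, and 2800, 2070 and 2277 were lower. The cause of the lowest counts, those without replicate 2, was not tested. In replicate pairs 1, 2 and 3, 446, 710 and 700 genes were at least 2-fold higher, and 161, 276 and 575 were at least 2-fold lower.

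Both terms contributed. The ATRA term was called for 40.6% of the genes tested and the EVI1 term for 28.6%. Of the 3081 higher genes, 1128 were called in both terms, 1087 in the ATRA term only and 638 in the EVI1 term only. Another 30 were opposed, 14 in the direction of ATRA and 16 in that of EVI1, and 198 were called in neither term. Of the 3175 lower genes, 883 were called in both terms, 1464 in the ATRA term only, 513 in the EVI1 term only, 60 were opposed and 255 were called in neither.

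**Figure D1:**
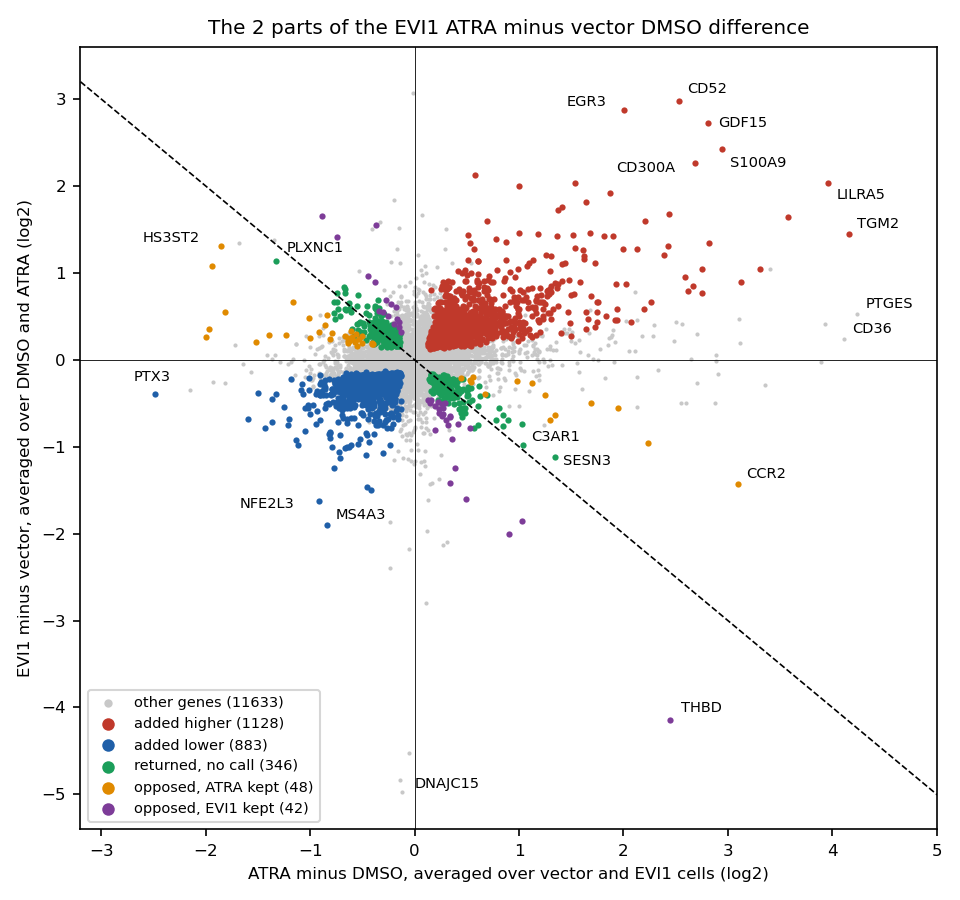
Each point is 1 of the 14080 genes tested, with the ATRA term (log2) on the x axis and the EVI1 term (log2) on the y axis; the combined difference is the sum of both, so genes on the dashed line end at the starting level. Colours give the classes: the 1128 added higher genes lie at the upper right, the 883 added lower genes at the lower left, and returned genes without a call lie along the dashed line. The 48 and 42 opposed genes that were called in the direction of 1 effect have their own colours, and 50 of them also met the interval for a return.

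By the averaged terms, 1128 genes were added higher and 883 added lower, 8.01% and 6.27% of the genes tested. Both terms include the EVI1 ATRA arrays, so a gene that moved only with both changes can also be called added. FAM222A, added higher, differed from vector DMSO by 0.13 with ATRA alone, 0.40 with EVI1 alone and 2.03 with both. Neither of its single changes was called. Both terms were at least 1.5-fold for 150 of the higher genes and 33 of the lower. These counts depend on how the effects are measured, on the block and on single arrays. With the effect of ATRA in vector cells and that of EVI1 under DMSO in place of the averaged terms, they were 143 and 90. Without the block they were 307 and 175, all among the blocked calls. Without replicate 3 they were 528 and 256, and without replicate 2 they were 333 and 222. Without array 3 of EVI1 DMSO alone, left out after the values were seen, they were 803 and 588, and without array 3 of vector DMSO alone they were 952 and 585.

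The largest rise was in LILRA5, an activating receptor of the leukocyte immunoglobulin-like family on monocytes. It read 4.16, 4.69 and 5.25 on vector DMSO arrays 1 to 3 and 9.79, 10.75 and 11.54 on the EVI1 ATRA arrays, a combined difference of 5.99 ± 0.79 (SE, adjusted p = 0.000166). This SE, like those that follow, comes from the fit over the 12 arrays and is not the spread of the 3 pairs. The groups do not overlap. With ATRA alone the gene read 7.04 to 8.82, and with EVI1 alone 4.48 to 4.99 on 2 arrays but 8.54 on array 3. Its EVI1 term of 2.04 was called with the block only and not without array 3 of vector DMSO. Of its other probe sets, 1 gave a like difference of 6.21 and the others gave 0.89 and 0.01.

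GDF15, a secreted stress-response member of the TGF-beta family, had almost equal terms, 2.81 for ATRA and 2.73 for EVI1. It read 4.77, 5.81 and 6.67 in vector DMSO and 9.81, 10.79 and 13.26 in EVI1 ATRA, with no overlap, and the combined difference was 5.54 ± 0.50 (SE, adjusted p = 2.10e-05). Vector cells with ATRA reached 6.39 to 8.42. EVI1 cells with DMSO read 5.56 and 6.30, close to vector DMSO, on arrays 1 and 2, and 10.21 on array 3. Without the block the EVI1 term was not called (adjusted p = 0.0526), so GDF15 was not an added gene in that fit.

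CD52, a small glycosylated surface antigen of leukocytes, rose by 5.51 ± 0.46 (adjusted p = 1.34e-05), with 2.53 from ATRA and 2.98 from EVI1. Its levels were 3.93, 4.61 and 5.54 in vector DMSO and 8.27, 9.81 and 12.52 in EVI1 ATRA. In all 3 replicates the single conditions lay between these, at 5.46, 6.79 and 8.4 with ATRA and 5.35, 6.68 and 9.97 with EVI1. A second probe set gave 4.32. Without the block the ATRA term of CD52 was not called (adjusted p = 0.0541), and its added call was lost. CD300A, an inhibitory receptor of myeloid cells, showed the same order with a smaller error: 5.50, 6.22 and 6.47 in vector DMSO, 10.12, 11.02 and 11.87 in EVI1 ATRA, and a combined difference of 4.94 ± 0.28 (adjusted p = 3.99e-06). Another probe set for CD300A gave 4.47, and the third -0.06 with no call.

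S100A8 and S100A9 encode the 2 chains of calprotectin, an abundant cytosolic protein of neutrophils and monocytes. S100A9 rose from 5.96, 6.14 and 6.52 to 10.47, 11.53 and 12.71, a difference of 5.36 ± 0.63, and S100A8 from 5.63 to 5.71 to between 8.73 and 11.10, a difference of 4.12 ± 0.53. Both were called in each term, with and without the block and without replicate 3. EGR3, an immediate early transcription factor, read 3.69 to 3.88 in vector DMSO, at or below the lower quartile of each array, and 6.67, 8.45 and 10.79 in EVI1 ATRA. With the starting level set at the quartile, EGR3 rose by at least 27.2-fold. It read 3.81 to 4.42 with ATRA alone and 3.76, 3.84 and 7.45 with EVI1 alone, and neither single change was called (adjusted p = 0.754 and 0.365). Its added call was lost without the block. EGR1, of the same family, rose by 3.56 ± 0.24 (11.8-fold). IER3, a stress-induced early gene, rose by 3.79 ± 0.41.

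TGM2 and ACKR3 complete the added genes among the largest rises. TGM2, a transglutaminase that is a standard retinoid target, rose from 4.57 to 5.69 to between 9.36 and 12.15 (5.61 ± 0.40), of which 4.16 was the ATRA term. ACKR3, a scavenging chemokine receptor, rose from 3.89 to 4.21 to between 8 and 10.16 (5.22 ± 0.53). Neither was called as added without the block or without replicate 3, while their combined differences were called under each alternative tried. Other probe sets for TGM2 gave 5.18, 4.43 and 1.05. PTGES, which makes prostaglandin E2, and NCF1, the p47 subunit of the phagocyte oxidase, rose by 4.77 ± 0.36 and 4.45 ± 0.51. Both were called in the ATRA term only, and the NCF1 value is uncertain because its probe set may also read closely related pseudogenes.

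**Figure D2:**
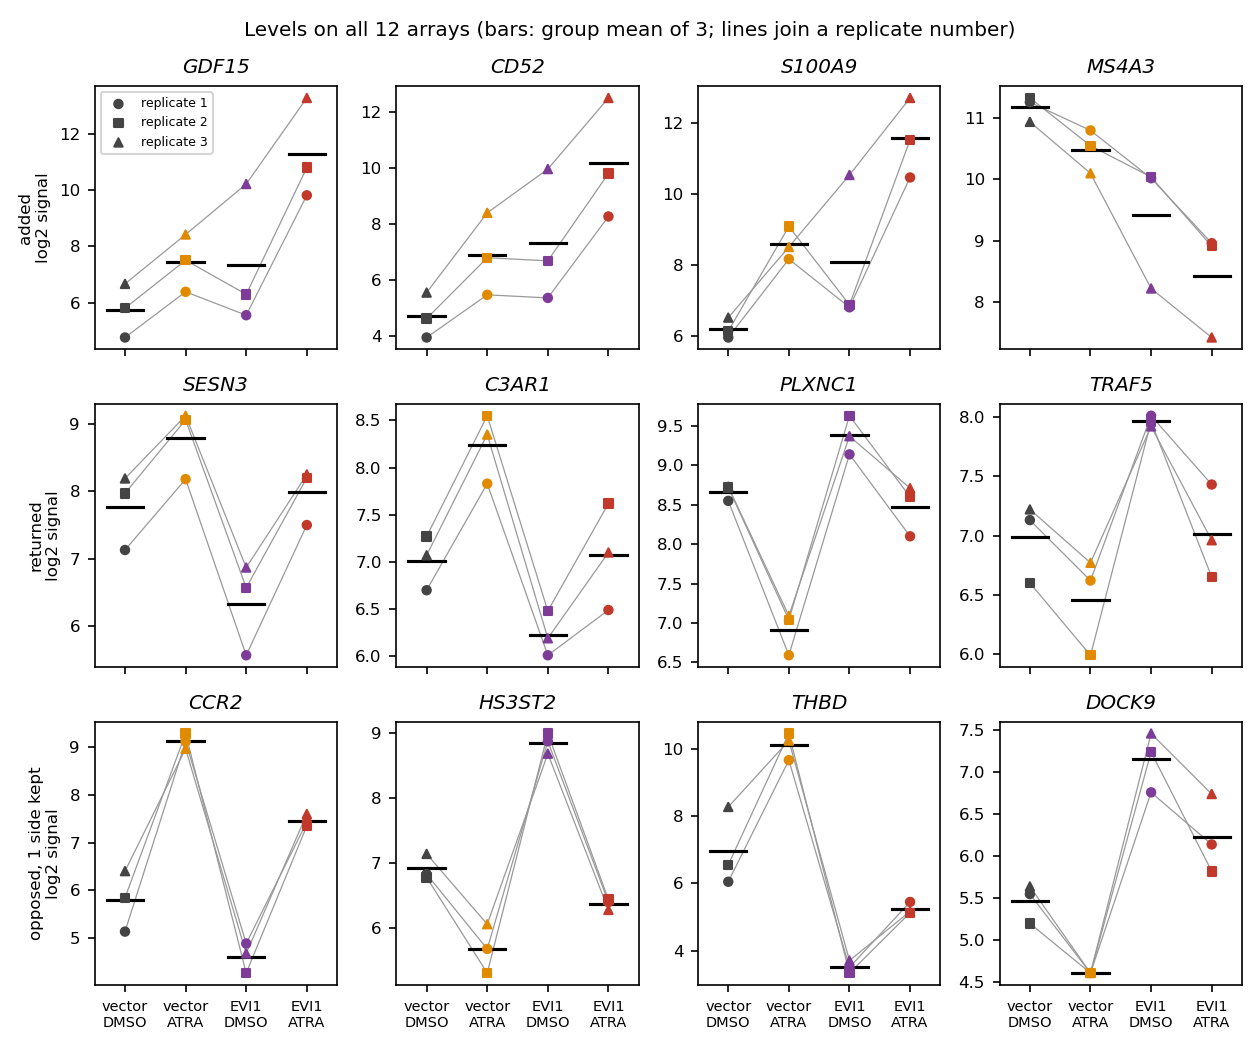
Log2 signal of 12 genes on the 12 arrays, with 1 panel per gene, the 4 groups on the x axis, symbols for replicate numbers, grey lines joining arrays of 1 number and black bars for group means (n = 3). In the top row EVI1 ATRA lies past both single conditions, in the middle row it lies at the level of vector DMSO between 2 single conditions that differ from it in opposite ways, and in the bottom row it lies on the side of ATRA (CCR2, HS3ST2) or of EVI1 (THBD, DOCK9).

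Several of the largest falls lay in 1 of the 2 terms. DNAJC15, a mitochondrial DNAJ protein, read 9.30, 9.34 and 9.40 in vector DMSO and 4.04, 4.34 and 4.37 in EVI1 ATRA, a fall of 5.10 on the log2 scale (SE 0.16, 34.2-fold, adjusted p = 2.43e-07). Nearly all of it was in the EVI1 term (-4.97), and the ATRA term of -0.12 was not called. A second probe set gave -2.21. The long noncoding RNA LINC01088 and the lysosomal membrane gene TMEM106B had the same form. Of their EVI1 ATRA arrays 3 and 2 lay at or below the lower quartile, and with these set at the quartile the falls were at least 21.8-fold and 18.7-fold. CLGN, a chaperone of the endoplasmic reticulum, fell by at least 5.7-fold in the same sense, with 1 EVI1 ATRA array and all 3 EVI1 DMSO arrays at or below the quartile. LTBP1, which binds latent TGF-beta, fell by 2.63 on the log2 scale. Both falls lay in the EVI1 term. SLC1A3, a glutamate transporter, fell by 2.49 on the log2 scale, and its ATRA term of -2.15 was the called one.

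Among the added lower genes, MS4A3, a membrane protein of granulocyte precursors, fell by 2.75 on the log2 scale. It read 11.26, 11.33 and 10.94 in vector DMSO, 10.80, 10.55 and 10.10 with ATRA, 10.02, 10.04 and 8.22 with EVI1, and 8.96, 8.91 and 7.42 with both. The levels descend in this order in each replicate. The SE of the combined difference was 0.27 (adjusted p = 2.90e-05). Without the block its ATRA term was not called (adjusted p = 0.1003), and MS4A3 was not an added gene. NFE2L3, a bZIP transcription factor of the NRF family, differed by -2.55 ± 0.10 (adjusted p = 4.74e-07), with -0.92 from ATRA and -1.63 from EVI1. PTX3, a secreted pattern recognition protein, fell from 5.76 to 6.25 to signals of 2.81 to 3.34, under the lower quartile of each array. With these set at the quartile, the fall was at least 4.47-fold and the EVI1 term was only -0.03, so the added call of PTX3 rests on values below the quartile. It was not called as added without the block, without replicate 3, or without array 3 of EVI1 DMSO or of vector DMSO.

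The other added lower genes with the largest pair of terms were IL18R1, the receptor for interleukin 18, the hepatocyte growth factor gene HGF, the cyclic GMP phosphodiesterase PDE9A, ANKRD55, SLAIN1 and UAP1, which makes UDP-N-acetylglucosamine. Their combined differences lay between -2.10 (IL18R1) and -1.65 (SLAIN1 and UAP1), and each was called as added lower also without the block and without replicate 3. UAP1 read 11.35, 11.24 and 11.40 in vector DMSO and 9.95, 9.60 and 9.48 in EVI1 ATRA. POLR3G, a subunit of RNA polymerase III, fell by 2.28 on the log2 scale, mainly through ATRA (-1.60).

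Genes of the interferon response rose together in the combined state. Of 32 tested interferon-stimulated genes, 24 were higher and 1 (IRF5, -0.23) was lower, against 21.9% and 22.5% of all genes, and 26 of the 32 differences were above 0. The median difference over all genes was -0.02. Of the 32, 20 were added higher (8.01% of all genes), and the median ATRA and EVI1 terms were 0.69 and 0.48. The count added was 11 without the block, 15 without replicate 3, 19 without array 3 of EVI1 DMSO and 18 without array 3 of vector DMSO. OAS1, which senses double-stranded RNA, rose by 3.6 ± 0.31, from 4.26, 5.03 and 4.87 to 6.82, 8.80 and 9.35. IFI6, an interferon-induced mitochondrial protein, rose by 2.83 ± 0.15, with terms of 1.54 and 1.29. Its vector DMSO arrays read 8.4, 8.82 and 9.08 and its EVI1 ATRA arrays 10.85, 11.83 and 12.11.

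OAS3, of the same family as OAS1, rose by 1.81 ± 0.07 (adjusted p = 4.74e-07). It read 6.59, 7.01 and 7.30 in vector DMSO, 7.64, 8.24 and 8.47 with ATRA, 7.09, 7.51 and 7.79 with EVI1, and 8.47, 8.82 and 9.05 with both. The order of the 4 groups was the same in each replicate. Without the block its EVI1 term was not called (adjusted p = 0.0656), and OAS3 was not an added gene. Transcription factors of the pathway rose as well: IRF9, the DNA-binding part of the complex that type I interferon activates, by 2.05, IRF1 by 1.99 and IRF7 by 1.85. The interferon-induced membrane genes IFITM1, IFITM2 and IFITM3 (-0.16, -0.11 and -0.05), MX2 (-0.06), IRF8 (-0.08), BST2 (0.14) and IFI44 (0.37) had no call.

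The promoters of these genes are shown because many hold the letters of the interferon-stimulated response element, which the IRF and STAT factors of the pathway are known to read. RefSeq promoter sequences (GRCh38.p14) were matched by symbol for 11235 of the genes tested, and the 250 bases before each start were searched on both strands for GAAA followed, after any 2 bases, by another GAAA. The motif was found in 12 of 24 listed interferon-stimulated genes that had a sequence (50%), against 2.21% of the promoters of all genes tested and 3.07% of all 27305 promoters of the table. It was found in 4.53% of the added higher genes and 2% of the added lower. Of the 14 listed genes that were added higher and had a sequence, 7 held it (50%), the same share as in the whole list. Listed genes without a call, such as BST2, IFITM1, IFITM3 and IFI44, held it as well. A match is a description of the letters and no evidence that a factor binds there. Capitals mark the motif or its reverse complement in 4 added higher genes of the list and in TAP1, a peptide transporter of antigen presentation.
IFI6, chr1:27672246-27672315, minus strand: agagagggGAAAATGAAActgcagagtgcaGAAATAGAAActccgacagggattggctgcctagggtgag
ISG15, chr1:1013354-1013429, plus strand: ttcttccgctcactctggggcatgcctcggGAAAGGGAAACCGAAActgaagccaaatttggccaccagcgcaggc
IFIT1, chr10:89392477-89392559, plus strand: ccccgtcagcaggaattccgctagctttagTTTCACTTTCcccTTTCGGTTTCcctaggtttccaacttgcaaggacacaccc
OAS3, chr12:112938432-112938473, plus strand: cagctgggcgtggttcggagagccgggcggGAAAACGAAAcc
TAP1, chr6:32853793-32853868, minus strand: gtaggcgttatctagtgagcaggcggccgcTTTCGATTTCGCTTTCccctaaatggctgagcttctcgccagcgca
ISG15, a ubiquitin-like protein, rose by 1.40 ± 0.18, and IFIT1, which binds foreign RNA, by 1.29 ± 0.28, the latter not without the block (adjusted p = 0.104).

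Genes of antigen presentation by MHC class I rose in the same samples. Of 18 tested genes of the class I pathway and the immunoproteasome, 15 were higher and 1 lower, against 21.9% and 22.5% of all genes. The lower gene was CALR, a chaperone of the endoplasmic reticulum (-0.52), and the median difference was 0.81. The list held 12 added higher genes, 4 without the block, 6 without replicate 3, 12 without array 3 of EVI1 DMSO and 12 without that of vector DMSO. PSMB9, a catalytic subunit of the immunoproteasome, rose by 1.64 ± 0.18, from 9.10, 9.10 and 10.05 to 11.10, 11.04 and 11.04. TAP1 rose by 0.89 ± 0.10, HLA-E by 0.96 and HLA-B by 0.64, while B2M, the common light chain, had no call (0.12). The interferon letters were found in 6 of the 16 class I promoters with a sequence (37.5%).

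MHC class II genes, which present peptides to helper T cells, rose mainly in the EVI1 term. Of 11 tested genes, 8 were higher and 0 lower, against 21.9% and 22.5% of all genes, with a median difference of 1.01. The EVI1 term was called higher for 8 and the ATRA term for 3, with medians of 0.77 and 0.07. Over the 14080 genes tested, the EVI1 term was higher for 2249 and the ATRA term for 2705. HLA-DRA read 8.59, 7.76 and 9.49 in vector DMSO and 8.63, 7.72 and 8.98 with ATRA, and 10.26, 10.14 and 11.06 with EVI1 and 10.05, 10.18 and 10.52 with both. The DMSO and ATRA arrays of each cell type overlap and the cell types do not, and the EVI1 term was 1.84 against an ATRA term of -0.20. CD74, the invariant chain, rose by 1.75 ± 0.14 and HLA-DMA, the peptide exchanger, by 2.24 ± 0.19, the latter with both terms called. CIITA, the master activator of the class II genes, had no call (-0.08). Without the block, 7 of the 11 were higher.

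Genes of ribosome assembly fell, where 22.5% of all genes were lower. All 17 tested ribosome biogenesis genes were lower, with a median difference of -0.79, of which the median ATRA term was -0.54 and the median EVI1 term -0.29. Of the 17, 12 were added lower (6.27% of all genes), 2 without the block, 4 without replicate 3, 11 without array 3 of EVI1 DMSO and 10 without that of vector DMSO, while 13 were lower in the combined difference without the block and 14 without replicate 3. RRS1, an assembly factor of the large ribosomal subunit, read 11.35, 11.28 and 11.21 in vector DMSO and 10.53, 10.06 and 9.89 in EVI1 ATRA (-1.12 ± 0.09). CAD, which starts pyrimidine synthesis, and NOP16, a nucleolar protein, both fell by 1.27 on the log2 scale. MYC, the transcription factor known to drive many of these genes, read 12.36, 12.49 and 12.48 in vector DMSO and 11.13, 10.82 and 10.22 in EVI1 ATRA (-1.72 ± 0.17). Its ATRA term was -1.33 and its EVI1 term -0.39, and with EVI1 alone it read 12.43 to 12.67. Of the antagonists of MYC tested, MXD1 (0.81) and MNT (0.57) were higher, MXD3 (0.03) had no call, and MXI1 was returned (-0.19, with an ATRA term of -0.51).

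DNA replication genes were lower in the same samples. Of 23 tested, 20 were lower and 0 higher, against 22.5% and 21.9% of all genes, with a median difference of -0.67. The list held 11 added lower genes, but only 1 without the block, 1 without replicate 3, 4 without array 3 of EVI1 DMSO and 2 without that of vector DMSO. The combined fall was called for 11 genes without the block and for 11 without replicate 3. MCM4, a subunit of the replicative helicase, read 11.23, 11.02 and 11.07 in vector DMSO and 10.53, 9.77 and 9.68 in EVI1 ATRA (-1.11 ± 0.14). Its means with ATRA alone and with EVI1 alone were 10.77 and 10.66, between these. MCM3, also added lower, had means of 12.2 in vector DMSO, 12.18 with ATRA, 12.17 with EVI1 and 11.53 with both. The averaged terms therefore do not show that each change alone lowered a gene of the list. PCNA, the sliding clamp, fell by 0.80 on the log2 scale (SE 0.13). GINS1, another helicase subunit, fell by 1.35 on the log2 scale, through the EVI1 term alone (-1.15). Of 20 mitosis genes, 7 were lower and 0 higher, with a median of -0.26. The EVI1 term was lower for 9 of the 20 and the ATRA term for 2. Over the 14080 genes tested, the EVI1 term was lower for 1784 and the ATRA term for 3018. PLK1, a mitotic kinase, had the largest fall of the list (-0.85 ± 0.08), and 3 of the 20 were lower without the block.

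Promoters of the replication genes are shown for the letters that E2F factors, the regulators of S phase genes, are known to read. TTTGGCGC or TTTCCCGC, on either strand, was found before the start of 10 of 20 listed genes with a sequence (50%), against 2.92% of all genes tested and 1.96% of the whole table. The interferon letters were found in 0 of the 20. The E-box CACGTG, the letters that MYC and its partner MAX read, was found in 0 of 13 ribosome biogenesis promoters with a sequence and in 8.67% of all genes tested, and a missing match says only that these letters are not in that window. The E2F letters were found before added lower genes and also before CDT1, GINS2, MCM7, RFC3 and TYMS, which were not added. In the stretches that follow, all from added lower genes, capitals mark the E2F letters.
MCM6, chr2:135876496-135876563, minus strand: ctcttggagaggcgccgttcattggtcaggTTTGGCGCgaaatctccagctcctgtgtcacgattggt
PCNA, chr20:5126644-5126711, minus strand: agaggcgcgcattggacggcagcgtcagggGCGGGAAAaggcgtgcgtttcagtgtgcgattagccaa
E2F1, chr20:33686386-33686435, minus strand: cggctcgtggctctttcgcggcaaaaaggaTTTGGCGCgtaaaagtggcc
MCM6 fell by 0.67 on the log2 scale (SE 0.11) and E2F1 by 0.39 (SE 0.09), the latter not without the block (adjusted p = 0.230). The 9 base EVI1 zinc finger letters GACAAGATA were found in 3 of the 11235 promoters, and a direct repeat of retinoid receptor half-sites also in 3.

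Of 14 tested cell cycle arrest genes, 7 were higher and 1 lower (GADD45B, -0.57), against 21.9% and 22.5% of all genes, and 5 were higher without the block. CDKN1A, the p21 inhibitor of cyclin-dependent kinases, was an added gene with equal terms (1.36 and 1.43). It read 7.92, 7.56 and 8.08 in vector DMSO, 8.90, 9.20 and 9.15 with ATRA, 8.75, 8.99 and 9.72 with EVI1, and 10.31, 10.70 and 10.91 with both (2.79 ± 0.17, 6.90-fold, adjusted p = 4.05e-06). The single conditions overlap each other and lie between the other groups. CCNG2, an atypical cyclin of arrested cells, rose by 1.88 and BTG1, an antiproliferative gene, by 1.20. The inhibitors CDKN1B (0.01), CDKN2A (0.03) and CDKN2B (0.23) had no call.

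Of 25 tested apoptosis regulators, 13 were higher and 4 lower, against 21.9% and 22.5% of all genes. Of the 25, 10 were added higher (2 without the block or without replicate 3), against 8.01% of all genes. BCL2A1, an antiapoptotic BCL2 relative, rose by 2.29 ± 0.18, with 1.60 from EVI1, and the death-associated kinase DAPK1 by 1.61, with 1.19 from ATRA. Genes of both kinds moved up, among them the proapoptotic BIK (1.31) and BMF (1.18) and the antiapoptotic CFLAR (0.88) and MCL1 (0.62). The list also held 4 opposed genes, which include the death receptors TNFRSF10B (-0.09) and FAS (-0.01) and the proapoptotic PMAIP1 (0.06), each of which met the interval for a return.

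**Figure D3:**
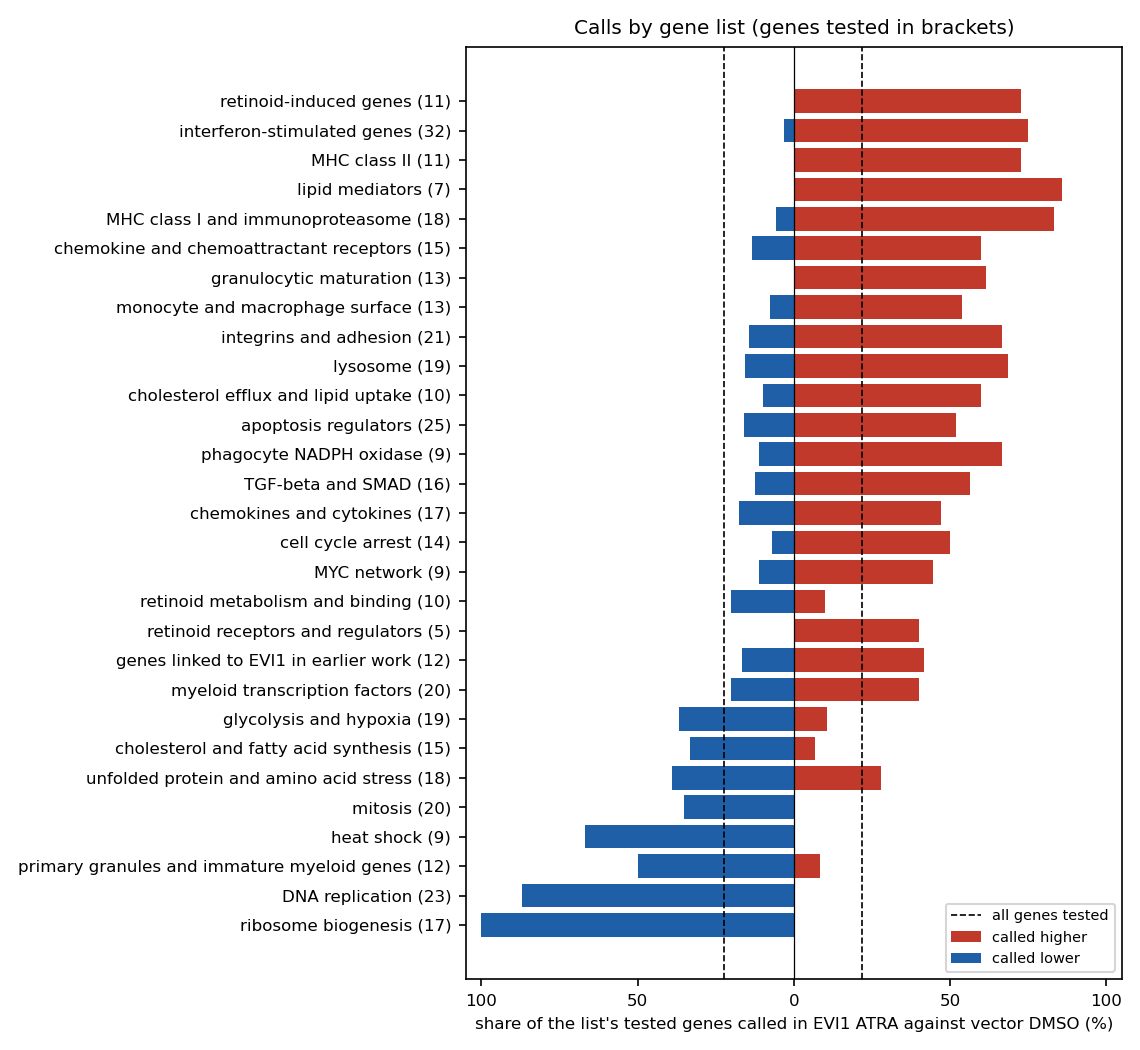
Bars give, for each of 29 gene lists (genes tested in brackets), the percentage of its tested genes called higher (red, to the right) and lower (blue, to the left) in EVI1 ATRA against vector DMSO, and the dashed lines give the same over all genes tested, 21.9% and 22.5%. Lists are ordered by their median difference, from ribosome biogenesis at the bottom, with 17 of 17 lower, to the retinoid-induced genes at the top, with 8 of 11 higher.

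Phagocyte genes of several kinds rose, with a lead of ATRA that differed by list. The median ATRA and EVI1 terms were 0.66 and 0.12 for granulocytic maturation genes and 0.43 and 0.24 for monocyte and macrophage surface genes. For lysosomal genes they were 0.30 and 0.26. Of 13 tested granulocytic maturation genes, 8 were higher and 0 lower, against 21.9% and 22.5% of all genes. All 8 were called also without the block. ITGAM, the CD11b chain of complement receptor 3, rose from 5.16, 5.69 and 6.36 to 7.46, 8.99 and 9.79 (3.01 ± 0.29), with an ATRA term of 2.70 and an EVI1 term of 0.30 that was not called. The late granule genes CAMP (0.08), LTF (0.16) and MMP9 (0.14) had no call. Of 12 primary granule and immature myeloid genes, 6 were lower and 1 higher (KIT, 0.99). CTSG, the granule protease cathepsin G, fell by 1.45 on the log2 scale with equal terms (-0.73 and -0.71), whereas MPO (0.22) and AZU1 (-0.13) had no call.

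Of 13 monocyte and macrophage surface genes, 7 were higher and 1 lower (the Fc receptor FCGR2A, -0.86), against 21.9% and 22.5% of all genes. CD36, a scavenger receptor, rose by 4.35 ± 0.47 through the ATRA term (4.11). CD14, CD163, MRC1, MSR1 and FCGR1A did not reach the signal limit and were not tested. Integrins and adhesion genes were higher for 14 of 21 and lower for 3, chemoattractant receptors for 9 and 2 of 15, lysosomal genes for 13 and 3 of 19, lipid mediator genes for 6 and 0 of 7, and oxidase genes for 6 and 1 of 9. Among them, the laminin receptor chain ITGA6 rose by 2.34 and progranulin (GRN) by 2.08, both added, and the adhesion ligand ICAM1 by 1.72. MERTK, a receptor tyrosine kinase by which macrophages take up dying cells, rose from 8.49, 8.23 and 9.23 to 11.11, 11.40 and 12 (2.85 ± 0.14), with terms of 1.73 and 1.12.

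Retinoid-induced genes are a list of genes that respond to ATRA in other cells, chosen with earlier results of these data known. Of 11 tested, 8 were higher and 0 lower, against 21.9% and 22.5% of all genes, with a median of 2.02. The ATRA term was called higher for 8 and the EVI1 term for 4, against 2705 and 2249 of the 14080 genes tested. DHRS3, which reduces retinal, read 5.3, 6.30 and 8.70 in vector DMSO and 10.93, 11.19 and 11.21 in EVI1 ATRA (4.34 ± 0.75), and in both DMSO groups array 3 was the highest. The retinoic acid receptor RARB was an added gene (2.02 ± 0.18, terms of 1.47 and 0.55), though not without the block. CYP26A1, which degrades retinoic acid, had no call (1.22 ± 0.47, adjusted p = 0.0576): the EVI1 ATRA arrays read 5.86, 5.98 and 8.53. The receptor RXRA was returned, with terms of -0.34 and 0.42 and a combined difference of 0.08.

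Other lists moved less evenly. Several of their shares lay near or below those of all genes, 21.9% higher and 22.5% lower. For example, 17.65% of the cytokines and 20% of the myeloid transcription factors were lower. Cytokines were higher for 8 of 17 and lower for 3, with IL1B at 1.67 ± 0.19. Cholesterol efflux and lipid uptake genes were higher for 6 of 10, among them the fatty acid carrier FABP4 (2.46 ± 0.34, added) and the oxysterol receptor NR1H3 (1.85), whereas cholesterol and fatty acid synthesis genes were lower for 5 of 15 and higher for 1, and 0 of these 5 falls held without the block. Glycolysis and hypoxia genes were lower for 7 of 19 and higher for 2, with hexokinase HK2 at -1.23 and both glucose transporters tested, SLC2A1 (1.35) and SLC2A3 (1.03), higher. Of 18 genes of the unfolded protein and amino acid stress responses, 5 were higher and 7 lower: DDIT4, an inhibitor of mTOR signalling, rose by 2.80 and the serine synthesis gene PSAT1 fell by 1.79 on the log2 scale. Heat shock genes were lower for 6 of 9, between -0.48 and -0.25, through the ATRA term. Of 16 TGF-beta and SMAD genes, 9 were higher and 2 lower, the MYC network was higher for 4 and lower for 1 of 9, and 20 myeloid transcription factors were higher for 8 and lower for 4, with CEBPB at 2.41 and KLF4 at -1.71. Of 12 genes linked to EVI1 in earlier work, 5 were higher and 2 lower, CD52 and ERG (-1.27) at the extremes. Without the block the counts fell by over 1.5 times for several of these lists: 4 cytokines and 5 TGF-beta and SMAD genes were higher, 1 cytokine was lower, and 3 heat shock, 4 glycolysis and hypoxia and, of the lysosomal genes above, 1 were lower. Without replicate 3, 6 TGF-beta and SMAD genes and 2 of the MYC network were higher. Of 5 retinoid receptors and regulators, 2 were higher, and of 10 genes of retinoid metabolism, 1 was higher and 2 were lower.

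**Figure D4:**
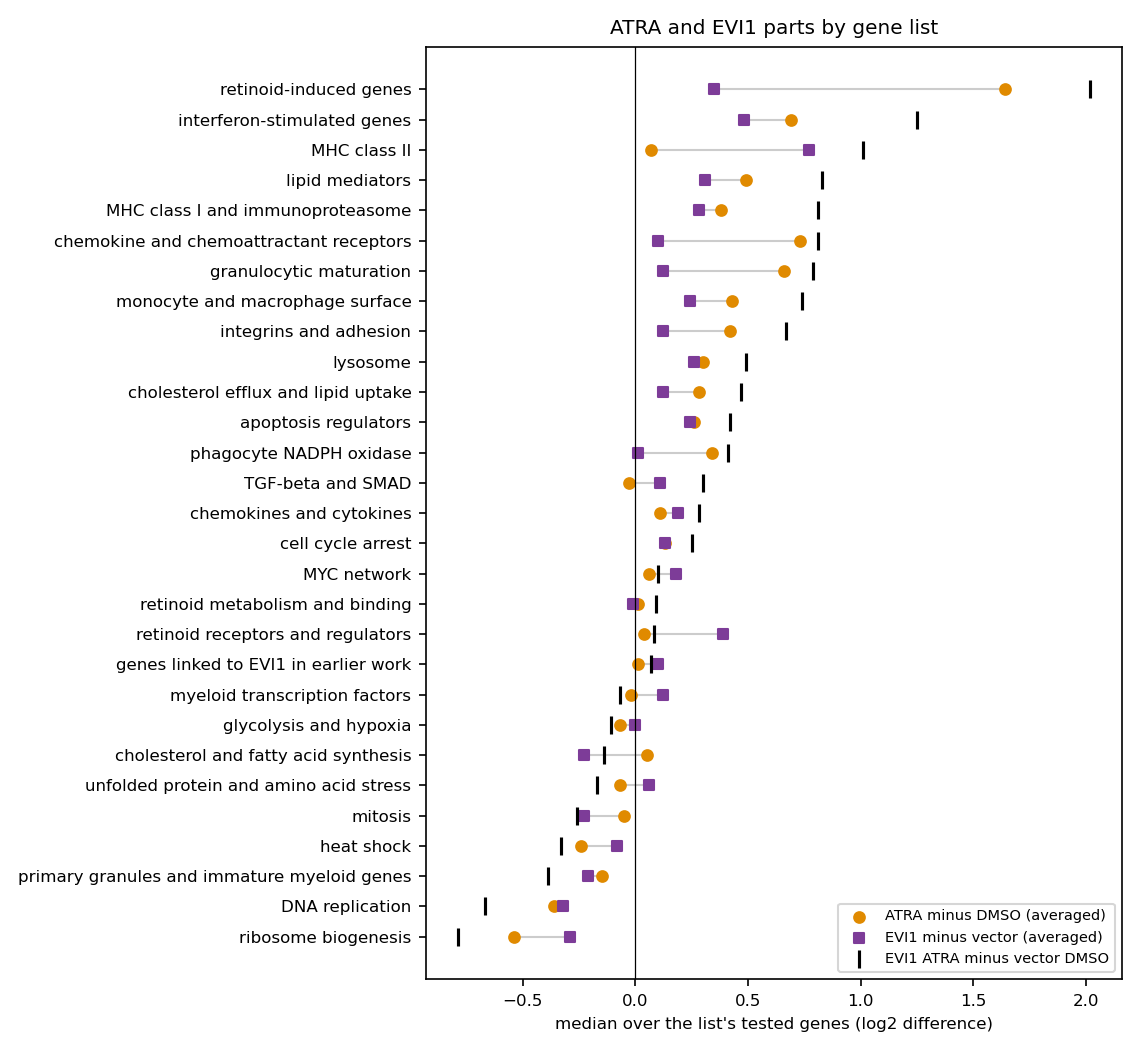
For each of 29 gene lists, the median log2 difference over its tested genes is plotted for the ATRA term (orange circles), the EVI1 term (purple squares) and the combined difference (black ticks). For the interferon-stimulated genes both terms lie above 0 (0.69 and 0.48), for MHC class II the EVI1 term leads (0.77 against 0.07), for the retinoid-induced genes the ATRA term leads (1.64), and for ribosome biogenesis and DNA replication both terms lie below 0.

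The opposed genes are the pool from which a return can come. There were 443 (3.15% of the genes tested), of which 190 had a higher ATRA and a lower EVI1 term and 253 the reverse. Of the 443, 396 (2.81% of the genes tested) met the interval for a return, with combined differences between -0.43 and 0.43, and 50 of these were also called in the combined difference. Most had small terms, with medians of 0.30 and 0.31, and small opposing terms lie within the margin by themselves. Only 33 opposed genes had both terms at or above 1.5-fold, a size limit added after the values were seen, and 18 of these returned. Of the 16 named in what follows by rank, 10 were returned without the block and 12 without replicate 3. Without the block 123 genes were opposed and 97 returned, and with single-condition effects in place of the averaged terms 114 and 88. Of 14 other probe sets above the signal limit for the 16 genes, 5 were called in the combined difference. Leaving out replicates 1, 2 and 3 in turn gave 230, 135 and 265 opposed and 183, 115 and 207 returned genes. The interval was read gene by gene with no adjustment over genes.

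SESN3, a stress-induced regulator of metabolism, had the largest pair of terms among returned genes that ATRA raised. It read 7.13, 7.97 and 8.19 in vector DMSO, 8.18, 9.06 and 9.12 with ATRA, 5.57, 6.57 and 6.87 with EVI1, and 7.50, 8.20 and 8.25 with both. In each replicate the level with both lay within 0.37 of the starting level, while ATRA alone lay above and EVI1 alone below it. The terms were 1.34 and -1.12 and the combined difference was 0.22 with an interval of 0.05 to 0.39, which was wider than the margin without the block. Another SESN3 probe set gave a different outcome: terms of 0.81 and -1.56 and a called combined difference of -0.75, so the return holds for the brighter probe set only. C3AR1, the receptor for the complement fragment C3a, had terms of 1.04 and -0.98 and ended at 0.06 (interval -0.15 to 0.26). It read 6.70, 7.27 and 7.07 in vector DMSO and 6.49, 7.62 and 7.10 in EVI1 ATRA, so the groups overlap. It was returned without the block and without replicate 3.

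The same form, ATRA up and EVI1 down, was found for KCTD12, a partner of the GABA-B receptor, the ketosteroid reductase AKR1C1, the carboxypeptidase-like CPVL of macrophages, the noncoding IL10RB-DT, the calcium channel ITPR2 and the small GTPase RAB31. Their combined differences lay between -0.14 (RAB31) and 0.28 (AKR1C1). For ITPR2 the 3 other probe sets were called, at 0.46, 0.40 and -0.28. RAB31 was bright on every array, with 11.22, 11.32 and 11.59 in vector DMSO, 11.89, 12.07 and 11.93 with ATRA, 10.57, 10.57 and 10.65 with EVI1, and 11.14, 11.39 and 11.17 with both. KCTD12, CPVL and RAB31 were returned also without the block, and AKR1C1 and IL10RB-DT were not returned without array 3 of vector DMSO, where they were called higher.

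Among returned genes that EVI1 raised and ATRA lowered, PLXNC1, a semaphorin receptor of myeloid cells, had the largest terms, 1.14 and -1.33. It read 8.55, 8.72 and 8.73 in vector DMSO, 6.59, 7.04 and 7.09 with ATRA, 9.14, 9.63 and 9.37 with EVI1, and 8.10, 8.60 and 8.71 with both. The combined difference was -0.20 (interval -0.37 to -0.02). From vector DMSO, ATRA alone moved PLXNC1 by -1.76 and EVI1 alone by 0.71, which do not balance. Its interaction of 0.85 was not called (adjusted p = 0.346). A second probe set had terms of -0.31 and -0.22 and gave -0.52, not called. TRAF5, an adaptor of TNF receptors, had terms of 0.77 and -0.74 and a combined difference of 0.03 (interval -0.25 to 0.31), with 7.13, 6.60 and 7.22 in vector DMSO and 7.43, 6.65 and 6.96 in EVI1 ATRA. TNFRSF10B, the TRAIL receptor DR5, read 8.57, 8.50 and 8.29 in vector DMSO, 7.85, 7.78 and 7.66 with ATRA, 9.10, 9.09 and 8.88 with EVI1, and 8.35, 8.51 and 8.23 with both. Its interval was -0.22 to 0.04.

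The group also held the AMPA receptor partner CNIH3, the adhesion ligand CD48, the endocytic adaptor HIP1, ATXN7L1, the galectin LGALS3, the antisense transcript INHBA-AS1 and the sialyltransferase ST6GALNAC4, with combined differences from -0.11 (LGALS3) to 0.16 (CNIH3). CNIH3, HIP1, ATXN7L1, PLXNC1 and TRAF5 were returned without the block and without replicate 3, though a second ATXN7L1 probe set was called higher (0.38). LGALS3 was not: it read 10.33, 10.92 and 10.11 in vector DMSO and 9.84, 10.62 and 10.57 in EVI1 ATRA, and without replicate 3 it was called lower (-0.39, adjusted p = 0.0239). There were 3 opposed genes with large terms that met neither the interval for a return nor the threshold for a call: INHBA, an activin chain (0.03, interval -0.59 to 0.65), TRIM71 (-0.33, -0.64 to -0.02) and INAVA (0.49, 0.08 to 0.90).

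In 90 opposed genes 1 effect outweighed the other, though 50 of these also met the interval for a return. The ATRA direction was kept by 48 and the EVI1 direction by 42, and without the block by 6 and 11. CCR2, the receptor for the monocyte chemoattractant CCL2, kept the ATRA direction. It read 5.13, 5.84 and 6.4 in vector DMSO, 9.12, 9.29 and 8.97 with ATRA, 4.88, 4.26 and 4.67 with EVI1, and 7.43, 7.35 and 7.6 with both. The ATRA term of 3.10 and the EVI1 term of -1.43 left a rise of 1.67 ± 0.25 (adjusted p = 0.000385), which held under each alternative tried. The actin regulator PHACTR3 also kept the ATRA direction (-0.86 ± 0.15), as did HS3ST2, a heparan sulfate sulfotransferase (-0.54 ± 0.17). HS3ST2 was raised from 6.78 to 7.14 to 8.68 to 8.99 by EVI1 alone and read 6.28 to 6.44 with both, and it lost its call without replicate 1, without replicate 3 and without array 3 of either group. The complement receptor CR1 (1.28) lost its call without the block (adjusted p = 0.254), and its 4 other probe sets above the limit (0.06 to 0.74) were not called. The call was also lost without the block for AIG1 (0.60) and the germ cell cyclin CCNA1 (-0.50).

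THBD, thrombomodulin, kept the EVI1 direction and had large opposing terms, at least 2.28 for ATRA and at least 3.98 downward for EVI1, with its 3 EVI1 DMSO arrays set at the lower quartile that they lay below. It read 6.05, 6.55 and 8.27 in vector DMSO, 9.66, 10.45 and 10.24 with ATRA, 3.51, 3.34 and 3.71 with EVI1, and 5.45, 5.13 and 5.17 with both. ATRA thus left EVI1 cells below the start, by 1.71 on the log2 scale (SE 0.38, adjusted p = 0.00419). The pairs differed by -0.60, -1.42 and -3.10, and the difference was -1.01 without replicate 3 (adjusted p = 0.0205) and -1.09 without array 3 of vector DMSO (adjusted p = 0.00469). Its other probe sets gave -1.40, called, and -0.73, not called. The adhesion molecule CADM1 fell by 0.82 on the log2 scale (SE 0.18), where ATRA alone had moved it from 6.48 to 6.60 up to 8.13 to 8.61 and both together left it at 5.69 to 5.76. Other CADM1 probe sets gave -2.53, called, and -0.40, not called. DOCK9, an exchange factor for CDC42, stayed higher (0.77 ± 0.18), though a second probe set read 0.08. RHOBTB1 (-1.11) and FRMD4A (0.67) were not called without the block. RHOBTB1 was -0.63 without replicate 3, and FRMD4A was 0.32 without replicate 2 and 0.43 and 0.44 without array 2 of EVI1 ATRA or of vector DMSO, with no call in these 3. CASP1, the inflammatory caspase, was called lower by 0.25 but its interval, -0.38 to -0.12, also met the margin, and another of its probe sets was called higher (0.65).

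For 2110 genes EVI1 ATRA lay past both single conditions, 1064 higher and 1046 lower, called against vector DMSO, against vector ATRA and against EVI1 DMSO with 1 sign. The last of these comparisons called 35.7% of the genes tested and the one against vector ATRA 25.3%. Of the 2110, 1603 were added genes. The count was 339 without the block, 426 without replicate 2, 481 without replicate 3, and 1162 and 1024 without array 2 or 3 of EVI1 ATRA. The smallest p-values among them were those of OAS3, NFE2L3, AGO2, GPR18, MERTK and SLC19A2. AGO2, the slicing Argonaute protein, read 7.65, 7.62 and 7.74 in vector DMSO, 6.85, 6.77 and 6.79 with ATRA, 7.07, 6.97 and 7.05 with EVI1, and 6.14, 5.98 and 6.09 with both (-1.60 ± 0.06). The 4 groups do not overlap. GPR18, a G-protein-coupled receptor of leukocytes, rose by 2.63 ± 0.11 with terms of 1.18 and 1.45, and SLC19A2, a thiamine transporter, fell by 1.78 on the log2 scale (SE 0.09). AGO2, GPR18, MERTK and SLC19A2 were added without the block and without replicate 3 as well.

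Whether EVI1 and ATRA together gave more or less than the sum of their separate effects is the interaction. In limma, 0 genes (0%) were called, with a smallest adjusted p of 0.346. At an unadjusted p below 0.05 there were 1846 genes with the block and 362 without it, where 704 would be expected from 14080 tests. By value, the interaction was above 0 for 85.4% of the added higher genes (963), against 45.0% of all genes. It was below 0 for 783 of the 883 added lower genes. The EVI1 ATRA arrays enter both terms and the interaction with the same sign, so genes that moved only with both changes can be added. The choice of the added genes thus favours this direction, which gives no separate support for an interaction. The same genes had a wider spread in EVI1 ATRA, with a median SD of 0.249 among the added higher and 0.259 among the added lower genes, than in the other groups (0.148 to 0.211 and 0.131 to 0.175).

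The count of interaction calls turned on 1 array. Without array 1 of EVI1 ATRA, the one with the smallest shift, 318 genes were called, 102 higher and 216 lower, of which 51 were added higher and 78 added lower. The strongest included GINS2, CDC45 and MCM10 of the replication list, the S phase factors E2F2 and UNG, the enzyme DDC and the receptor P2RY13. GINS2 read 10.70, 10.40 and 10.39 in vector DMSO, 10.28 to 10.66 with ATRA, 10.35 to 10.88 with EVI1, and 10.52, 9.43 and 9.19 with both. Arrays 2 and 3 were lower than in every other group and array 1 was not. P2RY13 read 3.40 to 3.70, 3.98 to 4.93, 3.14 to 4.78, and 5.77, 7.68 and 8.65 in the same order. The vector DMSO arrays of P2RY13 lie below the lower quartile, so its interaction has no measured size. With all 12 arrays the interaction was -0.77 for GINS2, and neither gene was called (adjusted p = 0.346 for both), and without replicate 3 only 1 gene was called.

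The genes with the smallest interaction p were DNAAF3, CADM1, FAM222A, PLXNC1, KRT3 and GPR27. FAM222A read 6.56 to 6.99 in vector DMSO, 6.72 to 7.14 with ATRA, 6.62 to 7.50 with EVI1, and 8.75, 8.57 and 9 with both. Its interaction was 1.5 beside a combined difference of 2.03 ± 0.17. DNAAF3, an assembly factor of ciliary dynein, was lower with both (7.91, 7.50 and 7.44) than in any other group (8.45 to 9.10), with an interaction of -0.90. None passed the adjustment.

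Few markers of other cell types were called, where 21.9% of all genes were higher and 22.5% lower. Erythroid markers were called lower for 1 of 7 (KLF1, -0.80), megakaryocyte markers for 0 of 6, T and NK cell markers higher for 1 of 8 (NKG7, 0.61), B cell markers higher and lower for 1 each of 6 (CD79B, 1.03, and EBF1, -0.64), and epithelial, fibroblast and endothelial markers lower for 1 of 6 (COL1A1, -0.39). Their summed linear signals overlapped between the groups for the megakaryocyte (356 to 429 in vector DMSO, 359 to 396 in EVI1 ATRA), B cell (486 to 539 and 500 to 612) and epithelial sets (528 to 643 and 516 to 556), lay slightly lower in EVI1 ATRA for the erythroid set (555 to 621 and 471 to 548) and slightly higher for the T and NK set (548 to 580 and 592 to 719). Of the U937 and monocytic markers, 4 of 9 were higher, PTPRC (0.85) and ITGB2 (0.79) most, and LYZ was lower (-0.40), against 2 and 0 without the block.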

How the data were processed

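The deposited table holds log2 values of 54675 probe sets on 12 arrays, and the submitters' processing notes name RMA and Affymetrix Expression Console 1.3 as the authors' tools. No further scaling was applied. RMA normalises between arrays, so a shift of the whole transcriptome would not be seen. Probe sets with 1 gene symbol (41097) were kept, the brightest per gene, and 5695 genes below the signal limit were left out. Differences were fitted in R 4.3.3 by the lmFit and eBayes functions of limma 3.58.1 (4 group means and the replicate number as a block, 6 residual degrees of freedom), with Benjamini-Hochberg adjustment over 14080 genes. The code was tested on simulated data.

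Replicate numbers pair the samples: deviations from group means correlated at 0.41 to 0.70 for each of the 18 pairs of arrays with 1 number, and at -0.56 to 0.16 otherwise. The groups' members and the 35 gene lists (29 for biology, 6 for markers) were chosen with earlier results of these data known. Named genes are the 10 largest rises and falls with groups that do not overlap, the 8 added higher and lower and the 8 returned of each kind with the largest smaller term, 6 of each kind in which 1 direction was kept, the 6 with the smallest interaction p and beyond both single conditions, and listed genes as examples. Of the 65 named by rank, 48 were called; of their 37 other probe sets above the signal limit, 14 gave a clearly smaller difference (under 50% of that of the probe set used) and 2 had the opposite sign. Promoter sequences are those of RefSeq (GRCh38.p14). The number of arrays limits the precision.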

Additional observations from a re-analysis of the deposited data

Results flagged for a closer look

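In 2 of the named genes every array moved one way in 1 condition and the opposite way in the other. GPR27, an orphan G-protein-coupled receptor, was raised by ATRA in vector cells (0.33) and lowered in EVI1 cells (-0.32) in all 3 replicates. Its EVI1 difference was likewise 0.14 under DMSO and -0.52 under ATRA, an interaction of -0.66 (unadjusted p = 0.000155). KRT3, a keratin, was raised by ATRA in vector cells (0.38) and lowered in EVI1 cells (-0.24), with EVI1 differences of 0.45 and -0.18 and an interaction of -0.63 (unadjusted p = 0.00013). Both were named for their small interaction p, and neither interaction passed limma's adjustment over all genes (adjusted p = 0.346 for both).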

How the results depend on the processing

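Under the alternatives other than leaving out the block or replicate 2, the counts of higher and lower genes in the combined difference stayed within 1.5 times, and 40 of the 48 called named genes kept their call under each of 17 alternatives. The fit without the replicate block gave 1959 higher and 1672 lower, 307 and 175 added, 123 opposed, 97 returned, 6 and 11 with 1 direction kept and 339 beyond both single conditions, and it changed no direction of a named gene. A threshold of 0.01 gave 532 and 355 added, 194 opposed, 172 returned, 8 and 14 kept and 826 beyond. Single-condition effects in place of the averaged terms gave 143 and 90 added, 114 opposed and 88 returned. A narrower margin of return gave 256 returned, terms of at least 1.5-fold, a limit chosen after seeing the data, gave 33 opposed and 18 returned, and no signal filter gave 29 genes that kept the ATRA direction. The cause of these moves was not tested beyond their construction.

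Leaving out replicates or arrays gave 1971 to 2988 higher and 2070 to 3077 lower, 333 to 1212 added higher and 222 to 1201 added lower, 135 to 398 opposed, 115 to 351 returned, 10 to 40 with the ATRA direction kept and 11 to 38 with that of EVI1, 0 to 318 interaction calls and 426 to 2594 genes beyond both. Of the called named genes, AIG1, CASP1, CCNA1, FRMD4A, HS3ST2, RHOBTB1 and KRT3 lost their call in some of these. The number of arrays, 3 a group, limits the precision.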
